A study of Mus musculus with 10 samples.

Results

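In mouse embryonic stem cells, 879 H3K4me3 islands also carried H3K27me3 when BAF250a was present and lacked a H3K27me3 island after its deletion, while H3K4me3 was called in both. An island is a stretch of the genome listed by the submitters' peak caller as enriched over input. The 879 were selected by overlap of 1 bp or more: autosomal WT H3K4me3 islands that met a WT H3K27me3 island and a KO H3K4me3 island, but no KO H3K27me3 island. They are 879 of 27207 autosomal and of 28365 listed WT H3K4me3 islands. They were 32.5% of the 2706 autosomal WT bivalent islands with H3K4me3 in KO (95% exact Clopper-Pearson interval 30.7 to 34.3%), and the other 1827 (67.5%) kept a H3K27me3 island in KO. These 1827 are called kept bivalent islands here.

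H3K4me3 is laid down at active and poised promoters by the MLL and SET1 methyltransferases, and H3K27me3 by EZH1 or EZH2 within Polycomb repressive complex 2. In embryonic stem cells, promoters of many developmental regulators carry both marks at once, a state called bivalent, in which the gene is mostly silent but can be switched on upon differentiation. BAF250a, the product of Arid1a, is a DNA-binding subunit of the BAF (SWI/SNF) complex, which uses ATP to move or evict nucleosomes and is known to oppose Polycomb at many sites.

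The KO cells were labelled as BAF250a knockout and had been given 4-hydroxytamoxifen (1 µM, 36 hours), and the WT cells had been given ethanol on the same schedule. All were of the 129/C57BL/6 strain, were kept on embryonic fibroblast feeders in serum with LIF, and treatment began 4 hours after passage. The KO library used here for H3K27me3 has a title that reads H2K27me3, while its antibody is given as H3K27me3. Deletion and drug exposure cannot be told apart in this design, and the share of feeder chromatin in the libraries was not measured. There was 1 ChIP library per genotype and mark, cut with micrococcal nuclease and brief sonication, so every difference below compares those libraries and has no replicate check or p-value. The 4 lists held 13512350 (KO) and 9565481 (WT) H3K4me3 reads in 40978 and 28365 islands, and 839422 (KO) and 1140878 (WT) H3K27me3 reads in 6833 and 8067 islands.

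The selection rests on whether a KO H3K27me3 island was listed, so the absence of that mark is a description and not a result. Of all 7782 autosomal WT H3K27me3 islands, with or without H3K4me3, 51.2% overlapped no KO H3K27me3 island. The rule therefore picks bivalent islands out of a list in which such absence was common, and nothing is read from the count of 879 itself. The same rule applied in the other direction took KO bivalent islands with H3K4me3 but no H3K27me3 in WT. It found 395 islands, 17.6% of 2244 (16.0 to 19.2%). No background share was computed for this direction, and the 2 H3K27me3 lists differ in length and reads. The 17.6% is therefore not set against the share of the 879. KO H3K27me3 over these 395 had a median of 75 reads and 1.74-fold over input, against 75 reads and 2.22-fold for all 6573 autosomal KO H3K27me3 islands.

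Where the nearest KO H3K27me3 lay differed widely among the 879 islands. For 534 of them (60.8%) no KO H3K27me3 island lay within 50 kb, and the median distance was 113600 bp. For 128 (14.6%, 12.3 to 17.1%) the same WT H3K27me3 island did overlap a KO island, only not at the H3K4me3 island. For these 128 the label of a site without H3K27me3 in KO holds at the H3K4me3 island and not for its surroundings. Another 75 islands had a KO H3K27me3 island within 5 kb that did not touch their WT H3K27me3 island, and 142 had the nearest between 5 and 50 kb away.

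The edge of the rule was populated on both sides. A KO H3K27me3 island directly adjoined 23 of the 879 islands and lay within 200 bp of 44, while 60 kept bivalent islands overlapped KO H3K27me3 by 200 bp or less. Among those that adjoined one, the island at chromosome 1, 16506601 to 16511600 (mm9, as all positions here), had 130 WT H3K27me3 reads at 2.58-fold over input. The one at chromosome 1, 186819401 to 186825000, had 66 reads at 2.19-fold. Just outside the rule, the kept island at chromosome 1, 23768001 to 23770600, had 177 WT H3K27me3 reads at 1.99-fold and overlapped a KO H3K27me3 island of 66 reads by 200 bp. Over the 5 islands on each side that were taken in chromosome order, WT H3K27me3 ran from 66 to 191 reads inside the rule and from 83 to 322 reads just outside it, so the values on either side overlapped.

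WT H3K27me3 was weaker and shorter over the 879 islands than over kept bivalent islands, which is given as a description since H3K27me3 calls chose both classes. All 7782 autosomal WT H3K27me3 islands, taken singly, had a median of 70 reads, 3000 bp and 2.73-fold. Against that list the 879 islands stood lower by fold and not by reads or length. Kept islands also stood lower by fold, at 2.27, but higher by reads and length. The WT H3K27me3 reads had a median of 80 (quartiles 54 and 135.5) over the 879 islands, against 224 (128 and 523) over kept islands. The fold over input had a median of 1.85 (1.49 and 2.55) over the 879 islands, against 2.27 (1.74 and 3.05) over kept islands. The called H3K27me3 length was 3200 bp at the median over the 879 islands, against 7400 bp over kept islands. Read density differed less, at 26.9 reads per kb over the 879 islands and 32.2 over kept islands. The H3K27me3 call was also less certain. Of the 879, 331 (37.7%) had a WT H3K27me3 island with an FDR of 1e-10 or less, against 1366 of 1827 kept islands (74.8%). The best FDR was taken where an island met 2 or more H3K27me3 islands, as 74 of the 879 and 433 kept islands did. The share over all WT H3K27me3 islands was not computed.

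The share of WT bivalent islands without KO H3K27me3 was lower where WT H3K27me3 had more reads. This too is a description, since H3K27me3 calls set both classes. Islands that meet the same H3K27me3 island also share its reads, which the intervals ignore. Of 1956 H3K27me3 islands at kept islands, 231 met more than 1 of them. The 2706 islands were put in 10 bins of near-equal size by those reads, and 75.5% (70.1 to 80.4%) of the bin with 24 to 53 reads lacked KO H3K27me3. In the bin with 128 to 164 reads it was 29.5% (24.1 to 35.2%). In the bin with 431 to 945 reads it was 2.96% (1.29 to 5.75%), and with 953 reads or more 5.54% (3.13 to 8.96%). In 10 bins of fold over input the share was less steep and did not fall throughout, with 47.1% in the lowest bin, 18.8% at folds of 2.74 to 3.20 and 31.4% in the highest. By called H3K27me3 length it was 64.4% at 2800 bp or less and 5.08% at 12800 bp or more.

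**Figure D1:**
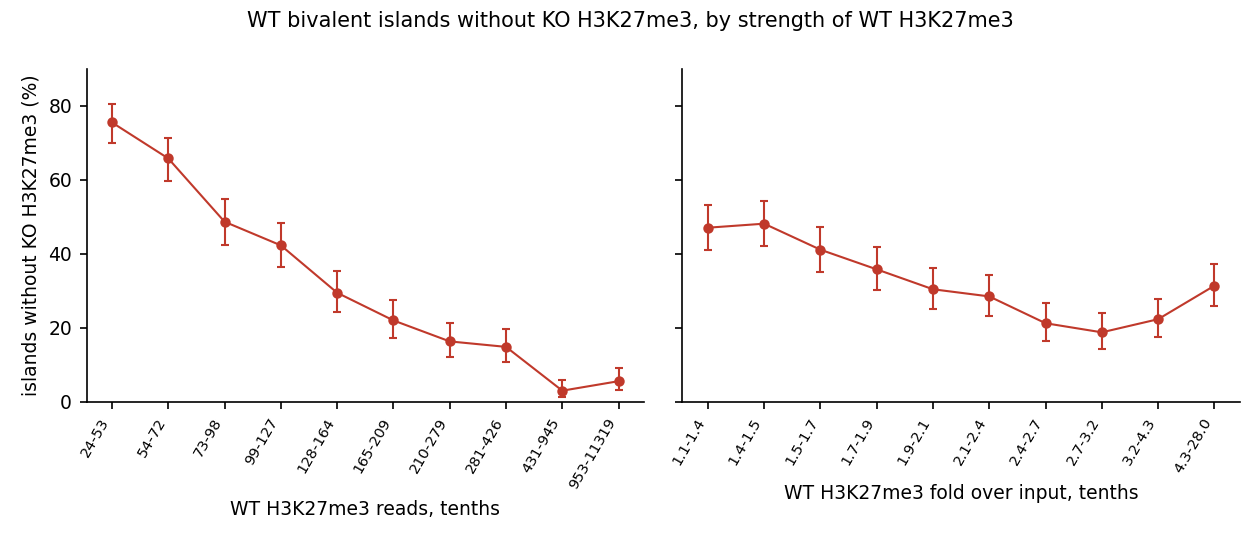
Share of autosomal WT bivalent islands with KO H3K4me3 that lacked a KO H3K27me3 island (vertical axis, percent), in 10 bins of WT H3K27me3 reads (left) and of WT H3K27me3 fold over input (right). Bars are 95% exact binomial intervals over islands, and the trend is a description because H3K27me3 calls set both classes. By reads the share runs from 75.5% in the lowest bin to 5.54% in the highest, and by fold from 47.1% to 31.4% with a low of 18.8%.

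Depth of the KO library limits what absence means, because a place without an island has no deposited count. With the KO input density measured in the H3K4me3 islands, a KO H3K27me3 island of the same length as in WT would have met the largest p-value of the KO list (0.0459) at a median fold of 1.29 over input (5th to 95th percentile 1.14 to 1.48). The WT fold was at or above this limit in 911 of 954 pairs of a H3K4me3 island and its H3K27me3 island (95.5%). At kept islands it was in 97.7% of 2271 pairs. Each WT H3K27me3 island had itself passed an FDR of 0.05, so high shares were nearly set in advance. They do not show that the KO library could have listed the mark. Enrichment below the limit would not have been listed, so by the p-value alone absence over the same length allows a KO fold of up to about that size. The limit does not cover the caller's earlier step, which joins windows by their read counts, so higher folds could also have gone unlisted. At kept islands, where both libraries have a value, the median H3K27me3 fold was 2.15 in KO and 2.27 in WT. Their median H3K27me3 reads were 131 in KO and 224 in WT, over called lengths of 6200 and 7400 bp.

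H3K27me3 mostly overhung one side of the H3K4me3 island. Of the 954 pairs at the 879 islands, the H3K27me3 island reached past one end of the H3K4me3 island in 616 (64.6%), past both ends in 160 (16.8%), and lay inside it in 178 (18.7%). At kept islands these shares were 59.4%, 33.6% and 7.00% of 2271 pairs. WT H3K27me3 covered a median of 42.9% of the H3K4me3 island at the 879 islands and 80.0% at kept islands. It covered all of the H3K4me3 island at 192 of the 879 (21.8%) and at 798 kept islands (43.7%). The 879 islands met 917 H3K27me3 islands, 34 of which met more than 1 of the 879.

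Among the 128 islands whose WT H3K27me3 island had a KO partner elsewhere, the rule itself requires that KO H3K27me3 be missing from part of that island, so the lengths that follow are a description. The 123 WT H3K27me3 islands behind them were met by 148 KO islands. These KO islands covered 902 kb with 25853 reads at a pooled 1.62-fold over input, and the WT islands 1197.8 kb with 40694 reads at 1.78-fold. Their median width was 4000 bp in KO and 6200 bp in WT, while the whole autosomal lists covered 34.7 Mb in KO and 34.3 Mb in WT. The 128 islands stood out within the 879 in their WT values, with a median of 194 H3K27me3 reads over 6600 bp, against 70 reads over 2800 bp at the 534 islands with no KO H3K27me3 within 50 kb. Their H3K4me3 was lower, at 2.23-fold over input in WT against 3.07-fold at the 534.

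The 5 islands with most WT H3K27me3 reads were all of the kind with KO H3K27me3 elsewhere on the same domain. The island at chromosome 4, 145734001 to 145737400, lay in a WT H3K27me3 island of 63800 bp with 3081 reads at 1.84-fold, and the nearest KO H3K27me3 island was 1800 bp away. A pair of islands at chromosome 8, 126110001 to 126110600 and 126113201 to 126114000, shared a WT H3K27me3 island of 66000 bp with 2652 reads at only 1.09-fold. At chromosome 19, 44799601 to 44801800, H3K27me3 covered 46000 bp with 1917 reads at 1.98-fold. The island at chromosome 4, 145257801 to 145259200, lay in 46800 bp of H3K27me3 with 1762 reads at 2.26-fold. Both chromosome 4 islands belong to a segment, singled out after its values were seen, that holds 32 of the 879 (3.64%) and 91 kept islands (4.98%). Input reads per kb of called H3K4me3 were higher in KO at the regions of these 2 islands, by a log2 of 0.43 and 0.62, and the part of this in the values was not tested.

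Of the islands with no KO H3K27me3 within 50 kb, the 5 with most WT H3K27me3 reads lay at 4 loci. At chromosome 3, 34544001 to 34570800, the widest of the 879 H3K4me3 islands, 2 H3K27me3 islands held 406 WT reads at 1.68-fold, and the nearest KO H3K27me3 island was 544200 bp away. Its H3K4me3 region held 5495 reads at 8.37-fold in KO and 3696 reads at 4.54-fold in WT. At chromosome 4, 137950401 to 137952600, 370 WT H3K27me3 reads stood at 2.16-fold, and the H3K4me3 fold was 4.86 in KO and 1.96 in WT, with 242 reads in KO and 129 in WT. The log2 ratio of scaled reads was 0.18 (0.12 to 0.24, counting error only) at the chromosome 3 site and 0.51 (0.20 to 0.83) at the chromosome 4 site. Reads are summed over each library's own called length, which was longer in KO by a log2 of 0.18 at the first site, as much as the read ratio, and of 0.35 at the second.

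At chromosome 9, 1 WT H3K27me3 island of 9400 bp with 333 reads at 1.93-fold linked 2 of the H3K4me3 islands. The first, 78289001 to 78292000, had 364 H3K4me3 reads at 4.66-fold in KO and 154 reads at 1.55-fold in WT, a log2 scaled ratio of 0.85 (0.57 to 1.13). The second, 78294401 to 78300000, had 826 reads at 9.16-fold in KO and 613 at 5.56-fold in WT, a scaled ratio of 0.04 (-0.12 to 0.19). Neighbouring islands under the same H3K27me3 island thus differed in how far their H3K4me3 reads differed between the libraries, and called length was longer in KO by a log2 of 0.49 at the first and 0.15 at the second. At chromosome 4, 53791401 to 53794000, with 313 WT H3K27me3 reads at 1.505-fold, H3K4me3 had 191 reads at 3.84-fold in KO and 203 at 2.33-fold in WT, so reads and fold differed in direction.

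**Figure D2:**
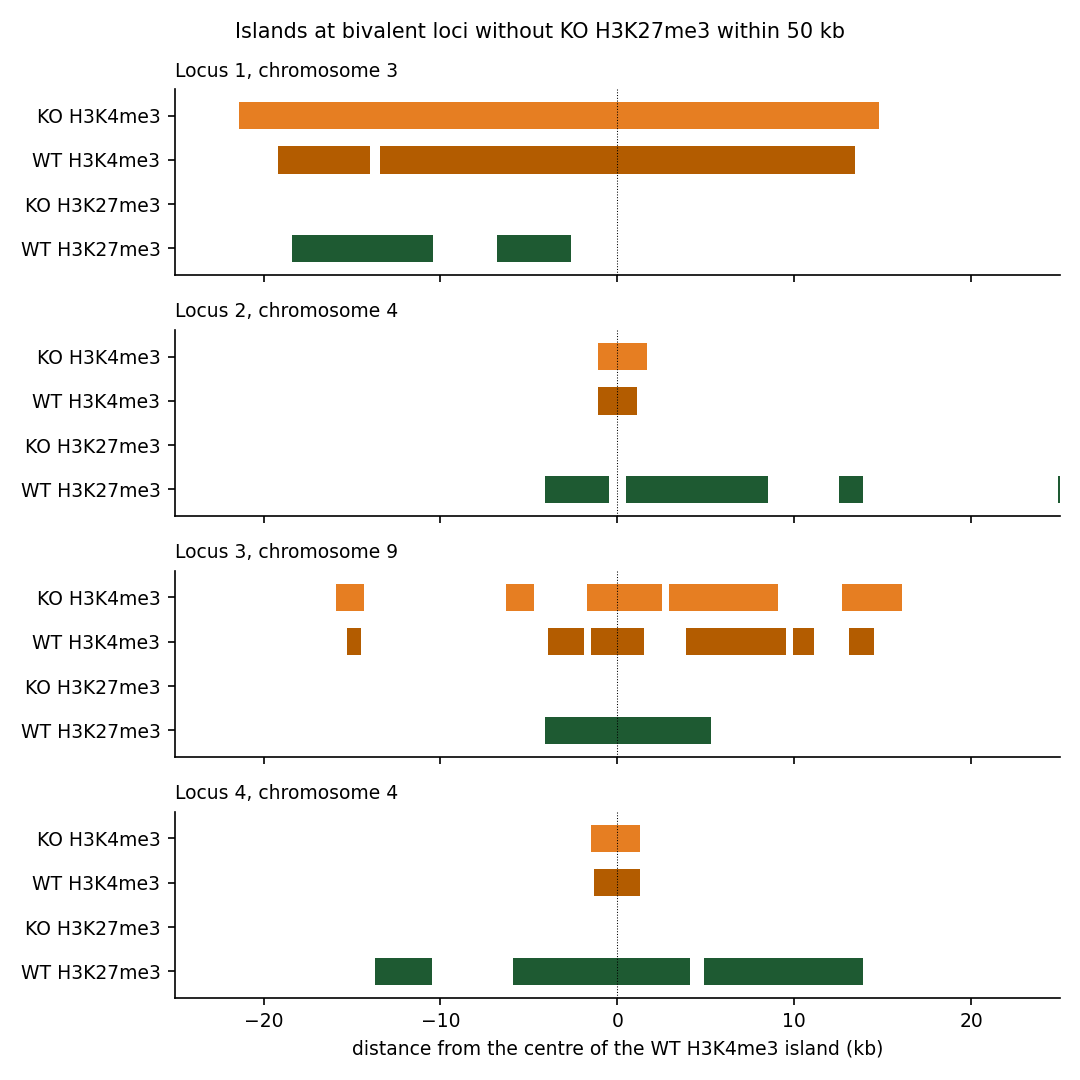
Islands within 25 kb of 4 bivalent H3K4me3 islands, the loci with most WT H3K27me3 reads among those with no KO H3K27me3 within 50 kb. Bars are listed islands of the KO and WT libraries of each mark, and the horizontal axis is the distance in kb from the centre of the WT H3K4me3 island. The KO H3K27me3 row is empty at every locus, while KO and WT H3K4me3 bars overlap at the centre.

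The highest WT H3K27me3 folds among islands with 50 or more H3K27me3 reads rested on 2 to 4 input reads. They ran from 21.5-fold at chromosome 13, 19028001 to 19029400 (72 ChIP and 2 input reads), to 11.3-fold at chromosome 4, 100934801 to 100939400 (57 and 3). In between lay chromosome 11, 121815201 to 121820600, with 56 and 2 reads, chromosome 18, 65588201 to 65595000, with 54 and 2, and chromosome 4, 58921001 to 58922200, with 91 and 4. Folds of this size are therefore imprecise.

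H3K4me3 in WT was somewhat stronger at the 879 islands than at kept bivalent islands. The median WT island had 215 reads and 2.89-fold over input at the 879 islands, against 181 reads and 2.40-fold at kept islands, with the same median width of 3200 bp. The 22675 autosomal WT H3K4me3 islands without H3K27me3 in either genotype but with H3K4me3 in KO had a median of 146 reads and 3.07-fold. The share of bivalent islands without KO H3K27me3 was 43.8% (39.6 to 48.1%) in the highest of 5 bins of WT H3K4me3 fold, and 24.4% (20.8 to 28.2%) in the lowest. This did not hold at every level of H3K27me3. At 24 to 72 H3K27me3 reads the share was 77.4% (71.8 to 82.3%) in the highest of 3 bins of H3K4me3 fold and 62.4% (52.2 to 71.8%) in the lowest. At 128 to 209 reads it was 20.3% (14.9 to 26.6%) in the highest bin and 30.1% (23.1 to 37.7%) in the lowest, with overlapping intervals.

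Nearly all of these islands had a higher H3K4me3 fold over input in KO, as did most others. The 879 islands fell into 850 regions, made by joining overlapping KO and WT H3K4me3 islands, and all of them held 20 or more reads in each library. Of these regions, 69 also held a WT H3K4me3 island that is not among the 879. All classes of regions go by H3K27me3 at their WT H3K4me3 islands, and any of the 879 places a region here. A longer KO H3K4me3 island can thus meet KO H3K27me3 in a region called without it, and such regions were not counted. At chromosome 1, 125941601 to 125943200, a KO H3K27me3 island adjoined the WT H3K4me3 island, while the region ran from 125940801 to 125943600. The median fold over input was 4.61 in KO and 2.90 in WT. Fold was higher in KO in 796 of 850 regions (93.6%), against 91.4% of all 22295 shared autosomal regions, and it was 2-fold or more higher in 150 (17.6%), against 22.6% of all. The log2 ratio of KO to WT fold had a median of 0.62 (rank-based interval 0.60 to 0.67) in the 850 regions, 0.62 in 1710 kept bivalent regions and 0.66 in all. By fold over input, then, bivalent regions classed as with and without a KO H3K27me3 island had nearly the same median.

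**Figure D3:**
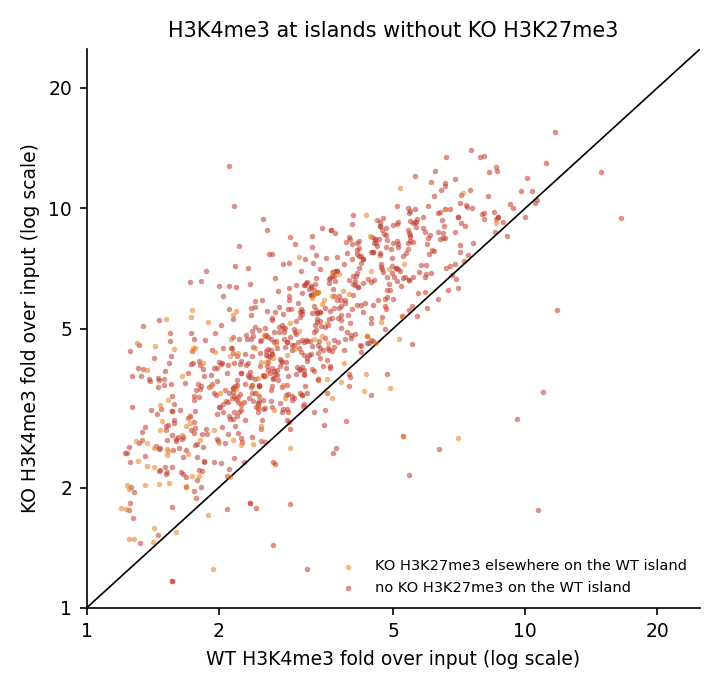
H3K4me3 fold over input in the KO library (vertical, log scale) and the WT library (horizontal, log scale) for the region of each of the 879 islands, with the diagonal marking equal folds. Orange points are the 128 islands whose WT H3K27me3 island met a KO island elsewhere, and red points the others. Most points lie above the diagonal, with a median of 4.61 in KO and 2.90 in WT.

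By reads, scaled so that the totals over all shared regions were equal, H3K4me3 at the 850 regions lay between kept bivalent regions and regions without H3K27me3. The median log2 KO over WT scaled ratio was -0.02 (-0.05 to 0.01) in the 850 regions, -0.17 (-0.19 to -0.15) in kept bivalent regions and 0.07 (0.06 to 0.07) in 19362 regions with no H3K27me3 in either genotype. Scaled reads were lower in KO by 1.5-fold or more in 47 of the 850 regions (5.53%), against 5.97% of all regions and 18.0% of kept bivalent regions. They were higher by 1.5-fold or more in 71 (8.35%), against 16.1% of all and 5.79% of kept bivalent regions. In 373 regions whose WT island met H3K27me3 in KO only, the median was -0.22 (-0.27 to -0.14). The classes overlapped widely, with quartiles of -0.25 and 0.26 in the 850 regions and -0.47 and 0.12 in kept regions.

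Called length followed the same order among the 850 regions, kept bivalent regions and regions without H3K27me3, while density and fold lay closer together. The KO islands were longer in 589 of the 850 regions (69.3%), against 72% of all regions and 53.0% of kept bivalent regions, and shorter in 200 (23.5%), against 19.4% of all and 38.9% of kept regions. Median called length was 4200 bp in KO and 3600 bp in WT in the 850 regions, and 3600 bp in KO and 3400 bp in WT in kept regions. Per kb of called length, the median log2 scaled ratio was 0.05 (0.02 to 0.07) in the 850 regions and 0.02 in kept regions, whose interval overlapped. Where the KO and WT islands began and ended at the same bases, the pooled scaled ratio was 0.916 over 28 intervals of the 879, 0.897 over 39 kept intervals and 0.919 over 841 intervals without H3K27me3.

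**Figure D4:**
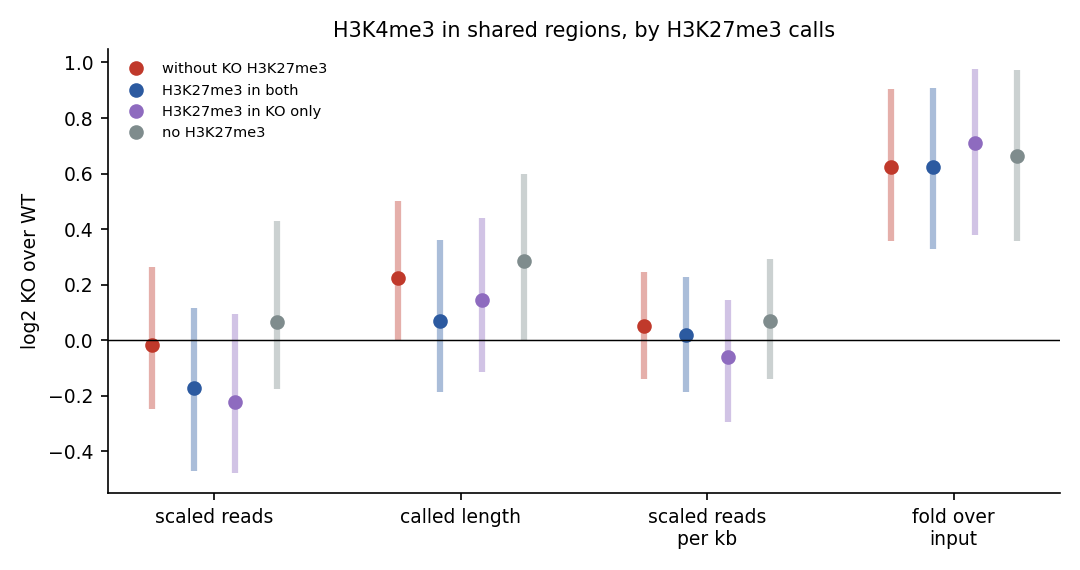
Median (points) and quartiles (bars) of the log2 KO over WT ratio of H3K4me3 in shared regions, by 4 measures, for 850 regions without KO H3K27me3, 1710 with H3K27me3 in both genotypes, 373 with it in KO only and 19362 with none. The medians are -0.02, -0.17, -0.22 and 0.07 in scaled reads and 0.62, 0.62, 0.71 and 0.66 in fold over input, and the quartiles of all classes overlap.

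The order of the medians of scaled reads was the same in all 5 bins of WT H3K4me3 reads, though not all intervals were apart. In regions with 129 to 348 WT reads the median was -0.02 (-0.07 to 0.02) in 299 regions without KO H3K27me3, against -0.17 (-0.20 to -0.14) in 747 kept regions and 0.05 in regions without H3K27me3. With 349 to 729 reads it was -0.13 (-0.17 to -0.06), against -0.34 (-0.39 to -0.31) in kept regions and -0.08 (-0.09 to -0.07) without H3K27me3, so that only the interval of kept regions was apart. With 730 reads or more it was -0.15 (-0.20 to -0.11), against -0.29 (-0.38 to -0.21) in kept regions. In the lowest bin, of 20 to 58 reads, the intervals overlapped, with 0.40 (0.11 to 0.72) over 71 regions and 0.29 (0.18 to 0.36) over 133 kept regions. Called length ran alike: with 349 to 729 reads its median log2 ratio was 0.14 (0.10 to 0.20) in regions without KO H3K27me3, against 0 (-0.06 to 0) in kept regions.

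**Figure D5:**
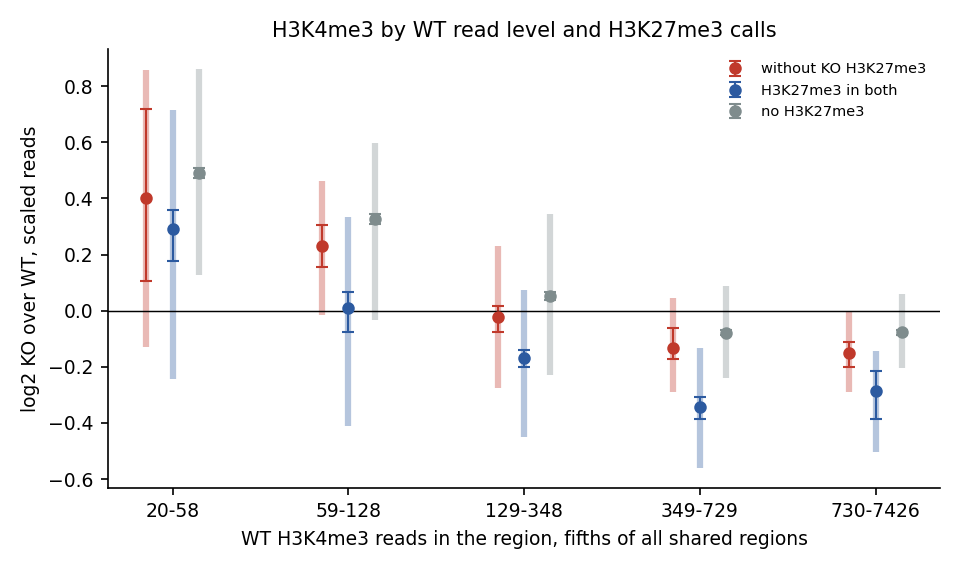
Log2 KO over WT scaled H3K4me3 reads (vertical) in 5 bins of WT H3K4me3 reads (horizontal), for regions without KO H3K27me3, with H3K27me3 in both genotypes and with none. Classes go by H3K27me3 at the WT H3K4me3 islands, not over the whole region. Points are medians with rank-based 95% intervals and wide bars are quartiles. Regions without KO H3K27me3 lie above those with H3K27me3 in both in every bin, with overlapping intervals at 20 to 58 reads.

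Ordered by WT H3K27me3 reads, the median was higher at islands without KO H3K27me3 than at kept islands in all 5 bins, with overlapping intervals in the bins of 73 to 127 reads and of 431 reads or more. With 24 to 72 H3K27me3 reads the median scaled ratio was -0.07 (-0.11 to -0.03) for 390 islands without KO H3K27me3 and -0.18 (-0.26 to -0.12) for 161 kept islands. With 128 to 209 reads it was 0.09 (0.02 to 0.17) for 139 islands and -0.14 (-0.19 to -0.11) for 400 kept islands. With 431 reads or more only 23 islands lacked KO H3K27me3, with a median of 0.05 (-0.30 to 0.56), against -0.29 (-0.36 to -0.22) at 518 kept islands. By fold over input the intervals of the 2 classes overlapped in every bin of H3K27me3 reads.

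Within the 879 islands, the KO over WT ratio of scaled H3K4me3 reads was highest where KO H3K27me3 lay elsewhere on the same WT island. So was the ratio of called length. Ratios are again those of the region of each island. The median log2 scaled ratio was 0.11 (0.05 to 0.20) at the 128 islands with KO H3K27me3 elsewhere on the same WT island, -0.04 (-0.12 to 0.04) at the 75 with it within 5 kb, -0.05 (-0.16 to 0.01) at the 142 with it within 50 kb and -0.05 (-0.09 to -0.0036) at the 534 farther away. Called length had median log2 ratios of 0.36, 0.19, 0.17 and 0.20 in the same 4 groups. The groups also differed in WT H3K4me3 reads per island, with medians of 138.5, 149, 180 and 263. In the bins above, the scaled ratio was lower where WT H3K4me3 reads were higher. The part of read level in the difference between groups was not tested. Per kb of called length the intervals of the 4 groups overlapped, with medians of 0.02, 0.08, 0.11 and 0.04, and by fold the medians were 0.62, 0.54, 0.61 and 0.63.

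The highest scaled ratios are given for regions where both libraries held at least 100 reads. A longer KO call raises this ratio by construction, since reads are summed over each library's own called length. At chromosome 19, 25577401 to 25584800, H3K4me3 had 976 reads at 8.15-fold over 7400 bp in KO and 255 reads at 2.99-fold over 3400 bp in WT, a log2 ratio of 1.54 (1.34 to 1.75). Its WT H3K27me3 had 271 reads at 2.02-fold, and the nearest KO H3K27me3 lay 93400 bp away. At chromosome 9, 78242001 to 78247400, close to the chromosome 9 locus above, there were 476 reads at 5.90-fold in KO and 145 at 3.88-fold in WT. The other 3, on chromosome 12, 112509001 to 112515000, chromosome 19, 46388001 to 46395400, and chromosome 7, 28184601 to 28194800, had log2 ratios of 1.16, 0.95 and 0.89. Per kb of called length the log2 ratios of the 5 were 0.71, 0.56, -0.13, -0.06 and 0.09, while fold was higher in KO in all 5.

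The 5 regions with the lowest ratios had shorter calls in KO, which lowers the ratio in the same way, and 4 of them had a higher fold in KO. At chromosome 6, 54378201 to 54381000, H3K4me3 had 162 reads at 3.54-fold in KO and 271 reads at 4.91-fold in WT, a log2 ratio of -1.14 (-1.43 to -0.85), and a KO H3K27me3 island adjoined it. At chromosome 9, 62993601 to 62998400, there were 111 reads at 1.83-fold in KO and 179 at 1.26-fold in WT, a ratio of -1.08. The other 3, at chromosome 8, 126151401 to 126153400 and 107935801 to 107939600, and chromosome 11, 118949201 to 118953400, had ratios of -0.98, -0.95 and -0.94. Per kb of called length the 5 ratios were -0.62, -0.29, 0.31, 0.13 and -0.16. Of the 5, the chromosome 6 region alone was lower in KO by fold as well.

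Input density was close between the classes of WT bivalent regions. Input per kb of H3K4me3 region was 12.4 in KO and 13.0 in WT in the 850 regions, and 13.8 in KO and 14.4 in WT in kept regions. Input per kb in KO relative to WT had a median log2 ratio of -0.10 in the 850 regions, -0.11 in kept regions and -0.10 in all. In the 373 regions with H3K27me3 in KO only it was -0.26.

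The 879 islands were spread over all autosomes. Their share of the bivalent islands with KO H3K4me3 ran from 22.8% on chromosome 14 (14.7 to 32.8%, 21 of 92) and 23.3% on chromosome 13 (16.9 to 30.6%, 37 of 159) to 41.4% on chromosome 11 (34.2 to 49.0%, 75 of 181) and 41.8% on chromosome 7 (32.9 to 51.1%, 51 of 122). Chromosome 4 held most, 87 of 284 (30.6%). Neighbouring islands of the 879 were 1280800 bp apart at the median, and 53 lay within 10 kb of the one before.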

How the data were processed

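Chromatin of KO and WT embryonic stem cells was profiled by ChIP-seq with 50 bp reads. Of 10 samples, the 4 H3K4me3 and H3K27me3 ChIP libraries were analysed through 1 deposited list of islands each, and the nuclease and input libraries were not used on their own. Alignment and calling tools in the submitters' processing notes are Bowtie (no version) and SICER 1.1, on mm9. Per the list names, windows were 200 bp, the FDR was 0.05, and gaps were 600 bp in H3K27me3 lists and 200 bp in H3K4me3 lists. How reads were filtered is not given in the sources used. The authors deposited for each island raw counts of ChIP and control reads, a p-value, an FDR and a fold over control. The deposited fold equalled ChIP over control reads times 1 constant per list, with 0.25 for a control of 0, and the deposited p-value equalled a Poisson tail of the same counts, in 100% of islands.

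Positions are 1-based. Overlaps of 1 bp or more counted, and members did not differ from those of bedtools 2.31.1 (0 islands). KO and WT H3K4me3 islands that overlapped were joined into 22361 autosomal regions, of which 22295 held 20 or more reads in each library. KO reads were divided by 1.31 times WT reads, the ratio of totals over those regions, and fold was recomputed from summed reads. Calls were a 1.5-fold difference of scaled reads or a 2-fold difference of fold. Library totals are not stated in the lists, so absolute depth outside islands is unknown. The constant was 0.974 in the KO and 0.596 in the WT H3K27me3 list. If it is the ratio of control to ChIP totals, the KO H3K27me3 library had fewer ChIP reads for each control read. Intervals are 95%: exact Clopper-Pearson for shares, rank-based for medians, and exact conditional binomial for read ratios. They cover counting error or take islands to be independent draws, so the spread between libraries lies outside them, and amplified reads are not independent molecules. With 1 library per group no test was made.

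The members, lists and rules were chosen with earlier results of these data known. Named regions are the 5 islands with most WT H3K27me3 reads, the 5 with the highest H3K27me3 fold at 50 or more reads, the 5 with most reads over 50 kb from KO H3K27me3, the 5 highest and 5 lowest H3K4me3 ratios at 100 or more reads in each library, and the 5 on either side of the edge of the rule. The detection limit, the chromosome 4 segment and regions with another WT island were taken up after seeing the data. Genes and promoters were not analysed here, since the annotation at hand is of another build. Software was Python 3.11.15 with scipy 1.17.1, pandas 2.3.3, numpy 2.4.6 and matplotlib 3.10.9, and the ratio steps were tested on simulated data.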

Additional observations from a re-analysis of the deposited data

How the results depend on the processing

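A recomputed share or median was taken as unchanged within the 95% interval of the reported value, and the number of islands when within 1.5 times of 879. By these margins 29 values were unchanged and 17 moved. The second margin is wide: 607 islands met the rule with an FDR of 1e-05 and 684 when KO H3K27me3 within 5 kb counted as present. Requiring that overlaps span 50% of the shorter interval, the share without KO H3K27me3 was 50.0%, the median WT H3K27me3 reads 105 and the median log2 H3K4me3 ratio -0.077. With a fold of 2 or more in every list, 512 islands met the rule, the share was 44.2%, the H3K27me3 fold 2.77 and the H3K4me3 ratio -0.066. At an FDR of 1e-05 the H3K27me3 fold was 2.34 and the reads 89. With the WT H3K27me3 list cut to the length of the KO list, the share was 29.9% and the reads 90. When KO H3K27me3 within 1 kb counted as present, the share was 29.3%, and within 5 kb it was 25.3% with 73 reads. The H3K4me3 ratio was 0.62 by fold over input, 0.050 by reads per kb and -0.068 with 100 or more reads in each library, so its sign depends on the scaling. The causes were not tested. Leaving out the chromosome 4 segment or regions with another WT island, both chosen after seeing the data, gave 847 islands in the first case and H3K4me3 ratios of -0.02 in each. Under every setting of the lists, the median H3K4me3 ratio by scaled reads without KO H3K27me3 lay above that of kept bivalent regions and below that of regions without H3K27me3. No paired analysis was possible because each genotype and mark has 1 ChIP library and no result comes from a test. Absence of an island says only that enrichment was under the caller's limits in a KO H3K27me3 library with fewer island reads than WT, and any difference may be one between libraries.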
